A study of Mus musculus with 6 samples.

Results

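A set of 10 genes that write, remove or maintain 2 repressive chromatin marks was followed in pancreatic stellate cells (PSCs). They were the DNA methyltransferases Dnmt1, Dnmt3a and Dnmt3b, the Dnmt1 recruiter Uhrf1, the methylcytosine dioxygenases Tet1, Tet2 and Tet3, and the core subunits Ezh2, Eed and Suz12 of Polycomb repressive complex 2 (PRC2). They were picked by gene symbol, with earlier results of these data known. All 10 were found among the 49671 genes of the count table, and all 10 were among the 15197 genes tested, those with 0.5 or more CPM (counts scaled to library size) in 2 or more libraries. PSCs are resident fibroblast-like cells of the pancreas. Those studied here were primary cells isolated from wild-type C57BL6/J mice by adherence to plastic and used without passaging. The cultures compared were held at pHe6.6, an acidic extracellular pH, or at pHe7.4, each for 120 h. The pHe was set through the sodium bicarbonate content of a DMEM/Ham F12 medium with serum, so that bicarbonate and pHe changed together and cannot be told apart. Each pHe had 3 biological replicates (A, B and C), which makes 6 RNA-Seq libraries, and the labels do not say whether a letter marks the same mouse in both groups.

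In mammals, DNA is methylated mainly at the cytosine of CpG dinucleotides. Dnmt1 copies the pattern onto the daughter strand behind the replication fork, where Uhrf1 binds hemimethylated CpG and brings Dnmt1 to it, whereas Dnmt3a and Dnmt3b place new methyl groups. The TET enzymes oxidize 5-methylcytosine, and base excision repair can then restore an unmodified cytosine. PRC2 methylates lysine 27 of histone H3 through either of the catalytic paralogs Ezh2 and Ezh1, and both need Eed and Suz12 for activity. Dnmt1, Uhrf1 and Ezh2 are known as genes whose transcription rises in cycling cells through E2F transcription factors, and Ezh1 as the paralog that prevails in resting cells. Fibroblast-like cells are known to place these marks on genes of other lineages. The libraries measured RNA only, so neither DNA methylation nor histone methylation was read.

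Promoter sequences are shown first because, of the 10 genes, 4 held the letters of an E2F site in the window from 250 bases before to 50 bases after a start listed by RefSeq (GRCm38.p6). The letters searched were TTTCCCGC, TTTCGCGC, TTTGCCGC and TTTGGCGC on both strands, and the matches stand in capitals. Dnmt1 had 3 listed starts, of which 1 held 2 matches (chr9:20952574-20952873, minus strand). Uhrf1 had 2 listed starts, of which 1 held 1 match (chr17:56304063-56304362, plus strand). Ezh2 (chr6:47594981-47595280, minus strand) and Suz12 (chr11:79992856-79993155, plus strand) had 1 start and 1 match each. The sequences run 5′ to 3′ along the strand of the gene.
Dnmt1: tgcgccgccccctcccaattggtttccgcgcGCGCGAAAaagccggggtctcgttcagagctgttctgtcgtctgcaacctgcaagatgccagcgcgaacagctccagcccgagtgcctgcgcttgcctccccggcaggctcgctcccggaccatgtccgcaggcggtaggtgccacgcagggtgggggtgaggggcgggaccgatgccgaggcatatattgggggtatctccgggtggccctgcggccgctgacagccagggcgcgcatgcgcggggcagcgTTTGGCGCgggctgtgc
Uhrf1: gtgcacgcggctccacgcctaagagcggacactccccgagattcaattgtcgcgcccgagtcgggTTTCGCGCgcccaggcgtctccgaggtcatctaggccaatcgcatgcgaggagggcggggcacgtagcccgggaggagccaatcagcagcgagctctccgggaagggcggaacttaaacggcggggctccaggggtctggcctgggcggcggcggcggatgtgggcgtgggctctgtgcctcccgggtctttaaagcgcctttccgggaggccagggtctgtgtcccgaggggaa
Ezh2: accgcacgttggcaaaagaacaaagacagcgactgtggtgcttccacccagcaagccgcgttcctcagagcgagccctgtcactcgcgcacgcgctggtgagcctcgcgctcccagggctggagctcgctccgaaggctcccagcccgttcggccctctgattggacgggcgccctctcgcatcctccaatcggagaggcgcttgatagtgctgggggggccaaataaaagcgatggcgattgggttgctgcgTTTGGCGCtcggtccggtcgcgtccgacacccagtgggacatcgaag
Suz12: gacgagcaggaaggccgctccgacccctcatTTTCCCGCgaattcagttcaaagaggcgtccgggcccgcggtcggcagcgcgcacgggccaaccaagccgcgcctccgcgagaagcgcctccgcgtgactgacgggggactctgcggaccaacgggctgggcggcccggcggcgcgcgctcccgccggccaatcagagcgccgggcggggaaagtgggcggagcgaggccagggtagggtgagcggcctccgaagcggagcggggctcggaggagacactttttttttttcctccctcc

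The first base of the letters lay 219 bases before and 34 bases after the start in Dnmt1, 185 bases before it in Uhrf1, 4 bases after it in Ezh2 and 219 bases before it in Suz12. No match was found in the listed windows of Dnmt3a, Dnmt3b, Tet1, Tet2, Tet3 or Eed, nor in those of the paralogs Ezh1 and Dnmt3l, which says only that these letters are not in these windows. Of all 32851 listed windows, 2.26% held the letters, as did 3.68% of the 14221 windows of genes tested. Among tested genes with a window, the letters were found in 6.12% of the 2976 that were lower at pHe6.6, in 3.19% of the 3044 that were higher and in 4.26% of the 5089 that did not pass the test. The 496 tested genes with the letters had a median log2 fold change of -0.13. The windows printed held 33 CpG in Dnmt1, 33 in Uhrf1, 31 in Ezh2 and 41 in Suz12, against a median of 7 over all windows. Each string of letters searched itself holds a CpG. High CpG counts were not particular to windows with a match. Those without one held 57 in Tet2, 46, 47 and 18 in Dnmt3a, 30 in Dnmt3b, 22 in Tet3, 17 in Tet1 and 17 in Eed. The windows of Dnmt1 and Uhrf1 that are not printed held 2 and 12 CpG in Dnmt1 and 12 in Uhrf1. A match describes the sequence and is not a binding site, and Suz12, which holds one, did not pass the test described next.

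The deposited counts summed to 28904761 to 38331877 per library. After scaling by TMM, which corrects for RNA composition, each count was worth 0.0252 to 0.0339 CPM. Where a library had no count, the gene could still reach 0.0756 to 0.102 CPM (the worth of 3 counts, for counting error alone). General stellate and fibroblast genes were abundant at both pHe values. The 16 markers of this kind summed to 38050 to 40940 CPM in pHe6.6 libraries and to 39150 to 49160 CPM in pHe7.4 libraries, with overlap. Of the 14 tested, 7 were higher at pHe6.6, 1 was lower and 6 did not pass the test, with a median log2 fold change of 0.30. For this and the other marker lists, the shares over all genes tested were 25.9% lower and 26.4% higher, or 52.3% in either direction. Vim, an intermediate filament gene, averaged 1327 ± 110 CPM in pHe6.6 cultures and 1392 ± 49.6 CPM in pHe7.4 cultures. It does not stand for the list, whose log2 fold changes ran from -0.973 to 1.935. Gfap and Lrat, which mark quiescent stellate cells, were at or near 0 in both groups. Vim, Gfap and Lrat were named outside the naming rule given below. Sums of markers of several other cell types differed. The 16 mesothelial markers summed to 467.5, 1011 and 748.2 CPM in pHe6.6 replicates A, B and C, against 1821 to 1866 CPM at pHe7.4. The 7 endothelial markers summed to 16.9 to 31.4 CPM in pHe6.6 libraries and to 43.8 to 55.4 CPM in pHe7.4 libraries, with 5 lower at pHe6.6, 1 higher and 1 not past the test. The groups overlapped for the 16 macrophage markers, which summed to 619 to 1165 CPM in pHe6.6 libraries and to 573 to 868 CPM in pHe7.4 libraries. Of these 16, 5 were higher at pHe6.6, 1 was lower and 10 were not past the test. The 4 B cell markers were near 0 except in pHe6.6 replicate C, at 8.92 CPM. In that library the 7 T cell markers summed to 3.04 CPM, against 0.102 and 0.115 CPM in pHe6.6 replicates A and B. At pHe7.4 they summed to 0.445 to 0.655 CPM. Ductal and endocrine markers (9 genes) summed to 82.3 to 330.3 CPM in pHe6.6 libraries and to 629 to 898 CPM in pHe7.4 libraries. Of these 9, only 2 were called lower at pHe6.6, and 7 were not past the test. The part of these cells in the results below was not tested. In bulk RNA, fewer cells of a type and less RNA per cell cannot be told apart.

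At pHe6.6, 5 of the 10 genes were lower than at pHe7.4, none was higher, and 5 did not pass the test (edgeR's quasi-likelihood test, Benjamini-Hochberg adjusted p under 0.05 over all genes tested). Ezh2, Uhrf1, Dnmt1, Dnmt3a and Tet3 were the 5 that passed. The other 5 were Dnmt3b, Tet1, Tet2, Eed and Suz12. Over all genes tested, 25.9% were lower at pHe6.6 and 26.4% were higher, which makes 52.3% called in either direction, and the share called lower among these 10 genes was 50%. The count of 0 genes higher at pHe6.6 was also 0 at an unadjusted p under 0.05 and 0 by DESeq2 and by limma-voom with sample weights. The log2 fold change, given throughout as pHe6.6 over pHe7.4, was negative for 9 of the 10 genes, with a median of -0.41 against -0.01 over all genes tested. The pHe6.6 libraries lay below the pHe7.4 libraries without overlap for 7 of the 10 genes, against 31.7% of all genes tested, and in 5 of these 7 the test was passed as well. Ezh2 and Uhrf1 lay far down the distribution, with 6.02% and 8.63% of genes having a lower log2 fold change. Dnmt1 followed with 17.5%, whereas Suz12 and Eed were near its middle with 43.4% and 53.1%.

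**Figure D1:**
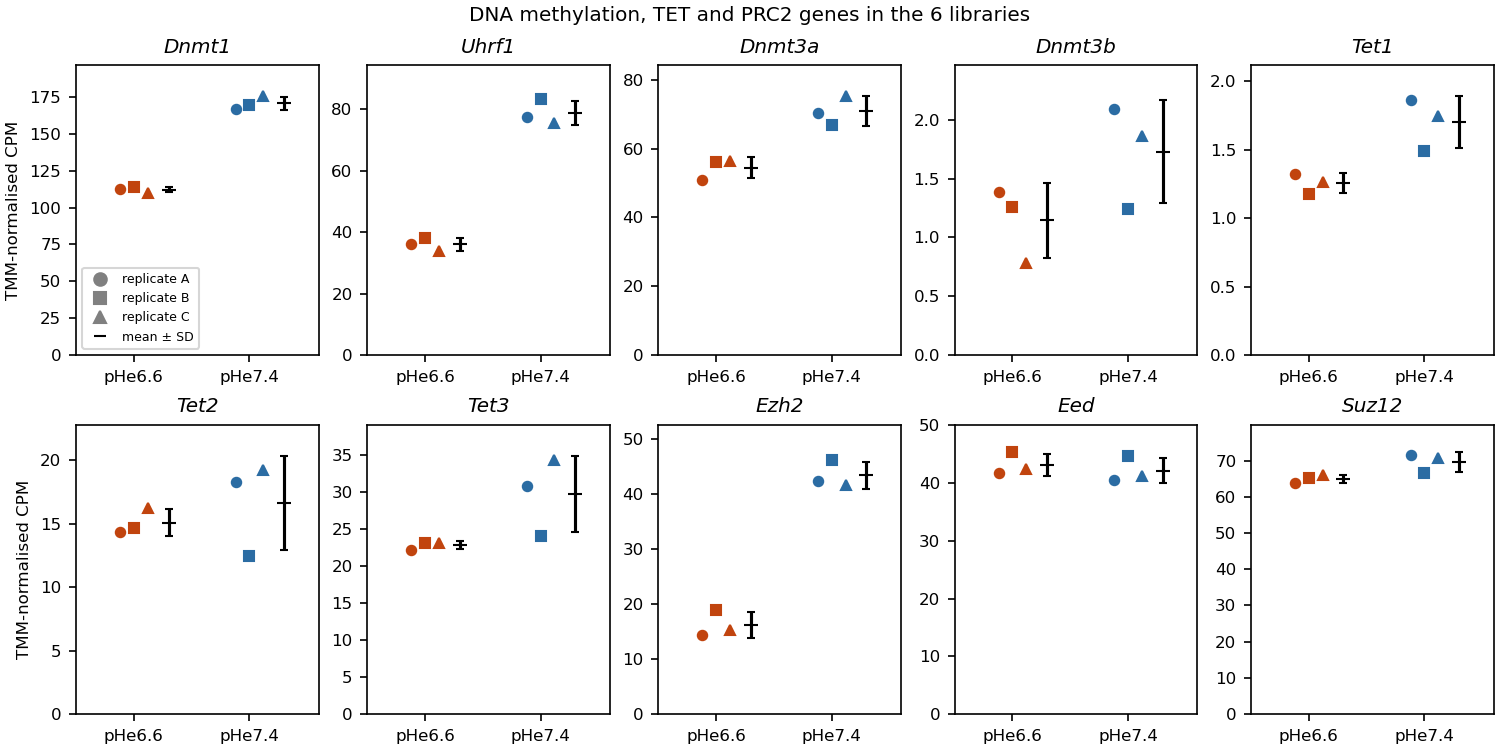
TMM-normalised CPM of each gene (vertical axis, starting at 0) in the 3 pHe6.6 libraries (left, orange) and the 3 pHe7.4 libraries (right, blue), with the symbol giving the replicate letter and bars the mean ± SD. The libraries are far apart for Ezh2 (16.2 against 43.4 CPM), Uhrf1 (36.0 against 78.8 CPM) and Dnmt1 (112 against 171 CPM), while Eed overlaps (43.1 against 42.1 CPM).

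Both genes of maintenance methylation were lower at pHe6.6. Dnmt1 (chr9:20907209-20959888, minus strand, GRCm38) had 112.7, 113.8 and 110.3 CPM in pHe6.6 replicates A, B and C, against 167.0, 169.9 and 175.6 CPM at pHe7.4. The groups were far apart relative to their spread, at 112 ± 1.81 CPM against 171 ± 4.38 CPM (SD, n = 3 each). The log2 fold change was -0.61 (SE 0.055, 95% confidence interval -0.73 to -0.48, adjusted p = 1.19e-04 by edgeR's quasi-likelihood test), or 65.7% of the level at pHe7.4.

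Uhrf1 (chr17:56303321-56323486, plus strand), the reader of hemimethylated CpG, changed by more than its partner. It had 36.03, 38.07 and 33.83 CPM in the pHe6.6 libraries, against 77.47, 83.30 and 75.56 CPM in the pHe7.4 libraries. The pHe6.6 libraries lay close together and far below the pHe7.4 libraries. Its log2 fold change of -1.13 (SE 0.071, interval -1.30 to -0.96, adjusted p = 2.67e-05, edgeR) leaves 45.7% of the level at pHe7.4. A processed pseudogene with 98.3% identity to Uhrf1 over 1590 bases, Gm5648, held only 2 to 13 counts per library, against at least 1063 counts for Uhrf1. Uhrf2, the paralog of Uhrf1, which is not known to take over its part in maintenance, had 98.28, 85.31 and 102.4 CPM at pHe6.6, against 105.9, 107.5 and 110.9 CPM at pHe7.4. Its groups did not overlap, but it did not pass the test (log2 fold change -0.18, adjusted p = 0.0836, edgeR).

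The log2 ratio of Uhrf1 to Uhrf2 within a library was -1.45, -1.16 and -1.60 in pHe6.6 replicates A, B and C, against -0.45, -0.37 and -0.55 at pHe7.4. The difference of -0.95 was larger than the spread within either group (SD 0.220 and 0.0931), with p = 0.1 in a two-sided exact permutation test, which is the smallest p that 3 libraries against 3 allow. This ratio was chosen after the data had been seen. Of 12 genes that work with DNA methyltransferases, 8 were lower at pHe6.6, 1 was higher and 3 did not pass, with a median log2 fold change of -0.45. For this and the later lists, the shares over all genes tested were 25.9% lower and 26.4% higher. Hells, a chromatin remodeler needed for methylation of repeats, had 17.69, 21.69 and 18.35 CPM at pHe6.6, against 42.11, 44.37 and 40.63 CPM at pHe7.4 (log2 fold change -1.14, adjusted p = 7.45e-05, edgeR). Ahcy, which clears the S-adenosylhomocysteine that inhibits methyltransferases, was lower too (-1.45, adjusted p = 1.38e-04, edgeR), as were Ctcf, an insulator factor kept from many sites by methylation (-0.45, adjusted p = 0.00122, edgeR), and Pcna, the sliding clamp to which Dnmt1 binds (-0.46, adjusted p = 0.00332, edgeR).

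The de novo enzymes were less changed, and Dnmt3b was barely expressed. Dnmt3a (chr12:3806007-3914443, plus strand) had 50.84, 56.14 and 56.43 CPM at pHe6.6, against 70.49, 66.93 and 75.35 CPM at pHe7.4. The groups did not overlap, with a mean of 54.5 ± 3.15 CPM against 70.9 ± 4.23 CPM (SD, n = 3 each). On the log2 scale the change was -0.38 (SE 0.072, interval -0.55 to -0.21, adjusted p = 0.00353, edgeR), or 76.8% of the level at pHe7.4.

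Dnmt3b (chr2:153649450-153687730, plus strand) had 41, 44 and 26 counts at pHe6.6, which is 1.39, 1.26 and 0.783 CPM, against 83, 39 and 63 counts, or 2.09, 1.24 and 1.86 CPM, at pHe7.4. The groups overlapped, because pHe7.4 replicate B lay within the range of the pHe6.6 libraries. Its log2 fold change of -0.60 had an interval of -1.31 to 0.11 (adjusted p = 0.132, edgeR), which includes both 0 and the change of Dnmt1. It was -0.38 without pHe6.6 replicate C (adjusted p = 0.342) and -0.79 without pHe7.4 replicate B (adjusted p = 0.0719, edgeR). Dnmt3c, a rodent germline paralog with 93.9% identity to Dnmt3b over 1434 bases, held at most 1 count per library.

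Dnmt3l, a cofactor of Dnmt3a and Dnmt3b that lacks catalytic activity and is known from germ cells, moved the other way. It had 17.18, 13.40 and 13.53 CPM at pHe6.6, against 4.911, 5.021 and 4.525 CPM at pHe7.4. All pHe6.6 libraries lay above all pHe7.4 libraries, and the log2 fold change was 1.61 (SE 0.132, adjusted p = 7.69e-05, edgeR). Dnmt3l lies on chromosome 10 and shares 67 exonic bases with Aire on the opposite strand, which held at most 8 counts in a library. Icosl, which starts 5679 bases beyond the end of Dnmt3l on the same strand, was higher as well (log2 fold change 1.95, adjusted p = 2.21e-05, edgeR). It was named after its values were seen, and whether reads of one gene were counted for the other was not tested.

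Among the TET genes, Tet3 alone passed the test. Tet3 (chr6:83362373-83459084, minus strand) had 22.16, 23.15 and 23.05 CPM at pHe6.6, against 30.85, 24.06 and 34.25 CPM at pHe7.4. The pHe6.6 libraries were close together at 22.8 ± 0.542 CPM, and pHe7.4 replicate B lay just above them while replicates A and C were clearly higher. The log2 fold change was -0.38 (SE 0.125, interval -0.67 to -0.09, adjusted p = 0.0338, edgeR). This call was lost when any of pHe6.6 replicates A, B or C or pHe7.4 replicates A or C was left out (adjusted p = 0.0863, 0.0626, 0.0908, 0.0901 and 0.108, edgeR). It became clearer without pHe7.4 replicate B (log2 fold change -0.52, adjusted p = 0.00293).

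Tet2 (chr3:133463679-133545139, minus strand), the TET gene known from blood cancers, had 14.34, 14.63 and 16.27 CPM at pHe6.6, against 18.28, 12.43 and 19.25 CPM at pHe7.4. Replicate B at pHe7.4 was below every pHe6.6 library, and the groups overlapped. Its log2 fold change of -0.14 had an interval of -0.53 to 0.24 (adjusted p = 0.485, edgeR). Without pHe7.4 replicate B it was -0.32 and passed (adjusted p = 0.032), whereas without pHe7.4 replicate A it was -0.08 (adjusted p = 0.765) and without pHe7.4 replicate C -0.03 (adjusted p = 0.896, edgeR). Tet1 (chr10:62804570-62908996, minus strand), known for its role in pluripotent and germ cells, had 39, 41 and 42 counts at pHe6.6, or 1.32, 1.18 and 1.27 CPM. At pHe7.4 it had 74, 47 and 59 counts, or 1.86, 1.49 and 1.75 CPM. The groups did not overlap, but the log2 fold change of -0.44 did not pass (interval -0.92 to 0.04, adjusted p = 0.106, edgeR).

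Replicate B at pHe7.4 was thus the lowest of its group for Tet1, Tet2 and Tet3, and also for Dnmt3a, Dnmt3b and Suz12, whereas it was the highest of its group for Uhrf1, Ezh2 and Eed. The TET genes and Dnmt3a have the longest exon sequence of the 10 genes, from 15457 bases in Tet1 to 16870 bases in Tet2, against 3828 bases in Eed and 4259 bases in Uhrf1. Dnmt3b (5106 bases) and Suz12 (4945 bases), also lowest in replicate B, and Ezh2 (6678 bases), highest in it, lay between these lengths. Dnmt3b had the largest drop in replicate B, at -0.44 (log2) from its group's mean. Over all 1369 genes tested with at least 10 kb of exon, pHe7.4 replicate B had a median deviation of -0.12 (log2) from its group's mean, against 0.06 in replicate A and 0.07 in replicate C. Over the 8255 genes with 1 to 5 kb of exon, the deviation was 0.04 in replicate B. In the pHe6.6 libraries the deviation of the genes of at least 10 kb ranged from -0.03 to 0.02. Replicate B at pHe7.4 was also the library with the fewest counts. The part of gene length and depth in the TET values was not tested beyond leaving this library out.

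Of 17 cofactors of the TET enzymes and genes of base excision repair, 8 were lower at pHe6.6, 3 were higher and 6 did not pass, with a median log2 fold change of -0.23. Tdg, the glycosylase that removes oxidized methylcytosine, was lower (log2 fold change -0.95, adjusted p = 2.28e-04), as were Ung, the uracil glycosylase (-1.19, adjusted p = 2.61e-04), and the DNA ligase Lig3 (-0.81, adjusted p = 1.45e-04; all by edgeR). Gadd45a, a stress-induced gene linked to DNA demethylation, was higher with 50.26, 43.80 and 49.23 CPM at pHe6.6, against 23.04, 17.32 and 20.46 CPM at pHe7.4 (1.23, adjusted p = 1.22e-04, edgeR). Idh1, which makes the 2-oxoglutarate that TET enzymes consume, was the most abundant of the list, and its groups overlapped (0.39, adjusted p = 0.0911, edgeR).

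The 3 core subunits of PRC2 did not move together. Ezh2 (chr6:47530139-47595341, minus strand), the catalytic subunit, was the most changed of the 10 genes. It had 14.44, 18.93 and 15.21 CPM at pHe6.6, against 42.29, 46.15 and 41.61 CPM at pHe7.4. The highest pHe6.6 library, replicate B, was below the lowest pHe7.4 library by more than the range within either group. The means were 16.2 ± 2.40 CPM and 43.4 ± 2.45 CPM (SD, n = 3 each), and the log2 fold change was -1.42 (SE 0.111, interval -1.68 to -1.16, adjusted p = 6.39e-05, edgeR), which leaves 37.4% of the level at pHe7.4. Replicate B was also the pHe6.6 library with the highest sums of mesothelial, endothelial, and ductal and endocrine markers. The replicative helicase genes Mcm2 to Mcm7 were likewise highest in it among the pHe6.6 libraries. The part of any of these in the level of Ezh2 was not tested. Without replicate B the log2 fold change of Ezh2 was -1.55, and it was -1.55 to -1.34 over all 6 fits that left out a library.

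Eed (chr7:89954654-89980983, minus strand), which binds the methylated histone tail, had 41.72, 45.27 and 42.39 CPM at pHe6.6, against 40.52, 44.65 and 41.17 CPM at pHe7.4. The groups overlapped almost fully. Its log2 fold change of 0.03 had an interval of -0.12 to 0.19 (adjusted p = 0.691, edgeR), and it became -0.0016 without pHe6.6 replicate B. Suz12 (chr11:79993106-80034123, plus strand), the scaffold of the complex, had 63.82, 65.29 and 66.01 CPM at pHe6.6, against 71.48, 66.58 and 70.80 CPM at pHe7.4. The groups lay close without overlapping, and the log2 fold change of -0.10 did not pass (interval -0.23 to 0.04, adjusted p = 0.185, edgeR). The intervals of Eed and Suz12 lay apart from that of Ezh2. The log2 ratio of Ezh2 to the mean of Eed and Suz12 was -1.84, -1.52 and -1.80 in the pHe6.6 libraries, against -0.35, -0.24 and -0.38 at pHe7.4. The difference was -1.40, with no overlap between the groups (two-sided exact permutation test, p = 0.1, the smallest possible, for a ratio chosen after the data had been seen).

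Ezh1, the other catalytic paralog, changed in the opposite direction to Ezh2. It had 60.19, 48.36 and 58.42 CPM at pHe6.6, against 23.32, 21.20 and 24.52 CPM at pHe7.4. All pHe6.6 libraries were above all pHe7.4 libraries, and the log2 fold change was 1.27 (SE 0.102, adjusted p = 6.96e-05, edgeR). The log2 ratio of Ezh2 to Ezh1, in CPM that are not scaled to length, was -2.06, -1.35 and -1.94 in pHe6.6 replicates A, B and C, against 0.86, 1.12 and 0.76 at pHe7.4. Counts of Ezh1 therefore outnumbered those of Ezh2 in each pHe6.6 library, and the reverse held in each pHe7.4 library. The difference of -2.70 was the largest of the 6 ratios compared (-2.91 to -2.56 when any single library was left out). The genes of all 6 ratios were among those chosen with earlier results of these data known. All 6 ratios had p = 0.1 in the two-sided exact permutation test, before and after Benjamini-Hochberg adjustment.

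**Figure D2:**
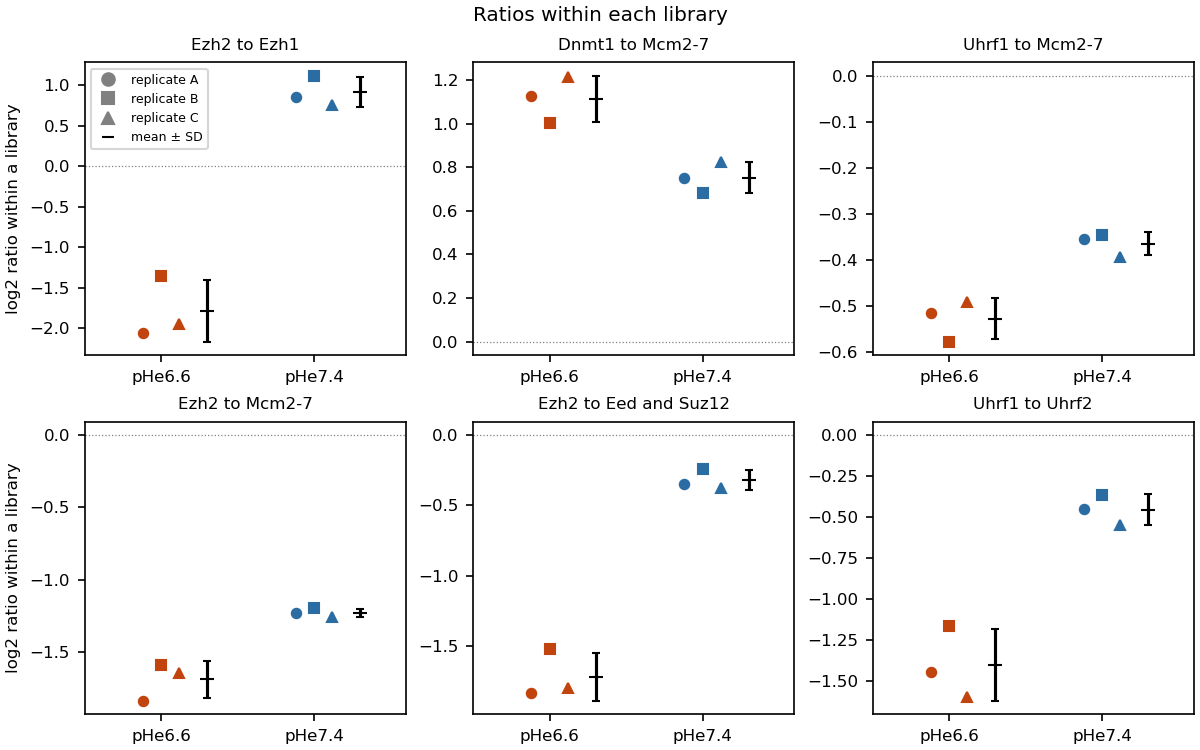
Log2 ratio of CPM within each library (vertical axes, each with its own scale, dotted line at a ratio of 1 where in view) for 6 pairs of genes or gene groups, with pHe6.6 libraries left (orange), pHe7.4 libraries right (blue) and bars for the mean ± SD. The groups are apart in all 6 panels, by -2.70 for Ezh2 to Ezh1 and by -0.16 for Uhrf1 to Mcm2-7, and Dnmt1 to Mcm2-7 is the panel in which pHe6.6 is higher (by 0.36).

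Of the 10 accessory or alternative PRC2 subunits tested, 5 were lower at pHe6.6, 3 were higher and 2 did not pass, with a median log2 fold change of -0.16. Epop, a subunit that links PRC2 to elongin, had 2.745, 3.959 and 3.284 CPM at pHe6.6, against 10.91, 10.58 and 10.82 CPM at pHe7.4 (log2 fold change -1.69, adjusted p = 1.09e-04, edgeR). Jarid2, which recruits PRC2 (-0.46, adjusted p = 0.00399, edgeR), and Rbbp7, a histone-binding subunit shared with other complexes (-0.39, adjusted p = 0.00228, edgeR), were lower by less.

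The order of the 10 genes by level per length differed between the groups. In CPM per kilobase of exon, Dnmt1 led at both pHe values, with 15.2 ± 0.246 at pHe6.6 and 23.2 ± 0.593 at pHe7.4 (SD, n = 3 each). At pHe6.6 it was followed by Suz12 (13.2), Eed (11.3), Uhrf1 (8.45), Dnmt3a (3.27), Ezh2 (2.43), Tet3 (1.37), Tet2 (0.894), Dnmt3b (0.224) and Tet1 (0.0812). At pHe7.4 Uhrf1 came second (18.5), ahead of Suz12 (14.1) and Eed (11), and Ezh2 (6.49) ranked above Dnmt3a (4.26), followed by Tet3 (1.78), Tet2 (0.987), Dnmt3b (0.339) and Tet1 (0.110). No neighbours in either order overlapped in the range of their 3 libraries. Uhrf1 thus stood below Suz12 and Eed at pHe6.6 and above them at pHe7.4. Lengths are those of all annotated exons joined, including long alternative ends, so that levels of genes with long ends, such as the TET genes, may be understated.

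**Figure D3:**
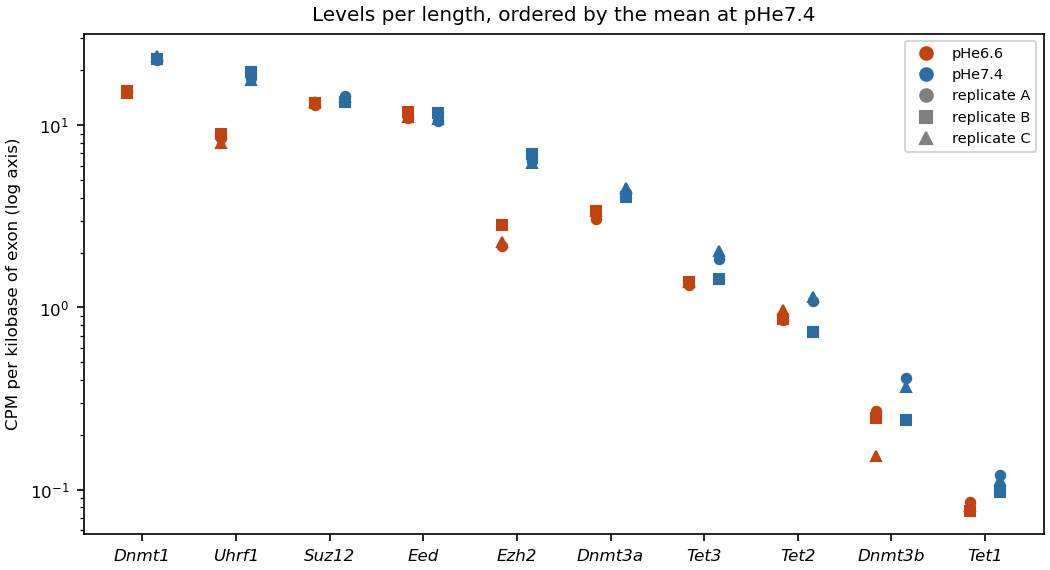
CPM per kilobase of annotated exon (vertical log axis) of the 10 genes, ordered from left to right by their mean at pHe7.4, with one point per library (pHe6.6 left in orange, pHe7.4 right in blue). The genes span from 15.2 (Dnmt1) to 0.0812 (Tet1) at pHe6.6 and from 23.2 to 0.110 at pHe7.4, and Uhrf1 and Ezh2 drop below their right-hand neighbours at pHe6.6.

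Dnmt1, Uhrf1 and Ezh2 were set against the replicative helicase genes Mcm2 to Mcm7, which load at origins of replication. All 6 helicase genes were lower at pHe6.6, with log2 fold changes of -0.99 (Mcm2), -0.91 (Mcm3), -0.82 (Mcm4), -1.26 (Mcm5), -0.84 (Mcm6) and -0.97 (Mcm7). Their geometric mean was 51.5, 56.8 and 47.5 CPM at pHe6.6, against 99.1, 105.8 and 99.2 CPM at pHe7.4. Of 25 S phase genes, 24 were lower at pHe6.6 and 1, E2f1, did not pass (0.10, adjusted p = 0.405, edgeR), with a median of -0.88. E2f1 was named after its values were seen. The S phase genes with the smallest adjusted p were the histone chaperone subunit Chaf1a (-0.93), thymidine kinase Tk1 (-1.22), cyclin A2 gene Ccna2 (-1.45) and cyclin E1 gene Ccne1 (-1.09).

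Relative to the mean of Mcm2 to Mcm7 within each library, the 3 genes differed in direction. The log2 ratio of Dnmt1 to Mcm2-7 was 1.13, 1.00 and 1.21 in the pHe6.6 libraries, against 0.75, 0.68 and 0.82 at pHe7.4, a difference of 0.36. Dnmt1 was thus less reduced than the helicase genes in this ratio. The log2 ratio of Ezh2 to Mcm2-7 was -1.83, -1.58 and -1.64 at pHe6.6, against -1.23, -1.20 and -1.25 at pHe7.4, a difference of -0.46. For Uhrf1 it was -0.52, -0.58 and -0.49 at pHe6.6, against -0.36, -0.35 and -0.39 at pHe7.4, a difference of -0.16. None of these ratios overlapped between the groups, and each had p = 0.1, the smallest possible, in the two-sided exact permutation test.

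**Figure D4:**
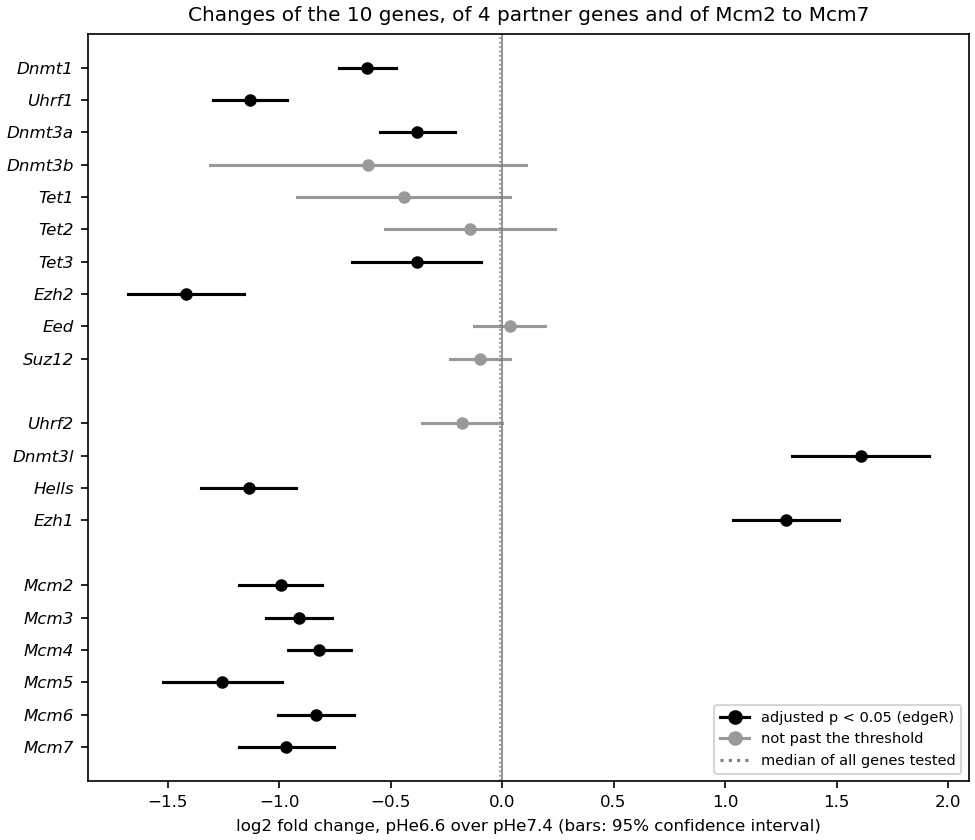
Log2 fold change, pHe6.6 over pHe7.4 (horizontal axis), of the 10 genes, of Uhrf2, Dnmt3l, Hells and Ezh1, and of Mcm2 to Mcm7, with bars for the 95% confidence interval, black for genes that passed edgeR's test, grey for those that did not and a dotted line at the median of all genes tested (-0.01). Ezh2 (-1.42) and Uhrf1 (-1.13) lie left with the helicase genes (-1.26 to -0.82), Eed (0.03) lies at the middle, and Ezh1 (1.27) and Dnmt3l (1.61) lie right.

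Genes with the most similar profile were sought among 12343 genes with a mean log2 CPM of 1 or more. The measure was the Euclidean distance of centred log2 CPM over the 6 libraries. Nearest to Ezh2 were Ska1, a kinetochore gene (distance 0.0828, log2 fold change -1.40), and Espl1, which encodes separase (0.0942, -1.45). Nearest to Uhrf1 were Kif18a, a mitotic kinesin gene (0.0887, -1.07), and Cdc7, a kinase gene of origin firing (0.112, -1.08). For Dnmt1 they were Ywhag, a 14-3-3 protein gene (0.0493, -0.60), and Sart3, a splicing factor gene (0.0643, -0.58). Dnmt3a was nearest to Phtf2 (0.0700) and Tia1 (0.0749), and Tet3 to Zfp689 (0.114) and D130017N08Rik (0.136). These distances describe 6 libraries in 2 groups between which 52.3% of genes were called different, and they say nothing of shared control.

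Of 8 genes whose proteins read methylated CpG, 1 was lower at pHe6.6, 4 were higher and 3 did not pass, with a median log2 fold change of 0.13. Zbtb4, a zinc finger repressor that binds methylated DNA, had 191.7, 170.6 and 185.8 CPM at pHe6.6, against 87.37, 80.82 and 93.27 CPM at pHe7.4 (1.07, adjusted p = 4.56e-05, edgeR). Mbd2, a methyl-CpG binding gene whose protein recruits the NuRD deacetylase complex, was higher too (0.41, adjusted p = 0.00171, edgeR). Mbd3, a subunit of the NuRD complex whose mammalian form binds methylated CpG poorly, was the gene that was lower (-0.56, adjusted p = 6.94e-04, edgeR).

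PRC1 complexes ubiquitinate histone H2A, and those with a chromodomain subunit read lysine 27 methylation. Of 21 PRC1 subunits, 7 were lower at pHe6.6, 4 were higher and 10 did not pass, with a median log2 fold change of -0.10. Over all genes tested, 25.9% were lower and 26.4% were higher, or 52.3% in either direction. The count of 7 was 4 without pHe6.6 replicate C, without pHe7.4 replicate A or without pHe7.4 replicate C. Cbx7, a chromodomain reader, had 15.15, 11.10 and 15.61 CPM at pHe6.6, against 4.382, 4.290 and 3.460 CPM at pHe7.4 (1.78, adjusted p = 1.42e-04, edgeR). It shares 100 exonic bases with Apobec3 on the opposite strand, and the strand setting of the counting is not given in the sources used here. The Polyhomeotic genes differed, with Phc3 higher (0.72, adjusted p = 8.89e-04) and Phc2 lower (-0.50, adjusted p = 0.00157, both by edgeR), and Pcgf2, a RING finger subunit, was lower (-0.37, adjusted p = 0.00271, edgeR). Yaf2, a subunit of variant PRC1 and the most abundant per length, did not pass (0.20, adjusted p = 0.0692, edgeR).

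Of 6 genes of lysine 27 demethylation and of the BAP1 complex that removes H2A ubiquitin, 5 did not pass, among these Bap1 itself (0.12, adjusted p = 0.107, edgeR). Asxl3 was the 1 called lower (-1.59, adjusted p = 0.0447, edgeR), with 0.115 to 0.305 CPM at pHe6.6, against 0.444 to 1.21 CPM at pHe7.4, and the call was lost by DESeq2, by limma-voom with sample weights and when any library other than pHe7.4 replicate C was left out. Of 10 genes of histone H3 lysine 9 methylation and heterochromatin protein 1, 6 were lower at pHe6.6, 1 was higher and 3 did not pass, with a median of -0.45. They included Trim28, the corepressor that recruits Setdb1 (-0.77, adjusted p = 7.16e-05), the methyltransferase gene Suv39h1 (-1.02, adjusted p = 1.84e-04), and the heterochromatin protein genes Cbx5 (-0.67, adjusted p = 2.11e-04) and Cbx1 (-0.54, adjusted p = 3.04e-04, all by edgeR).

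**Figure D5:**
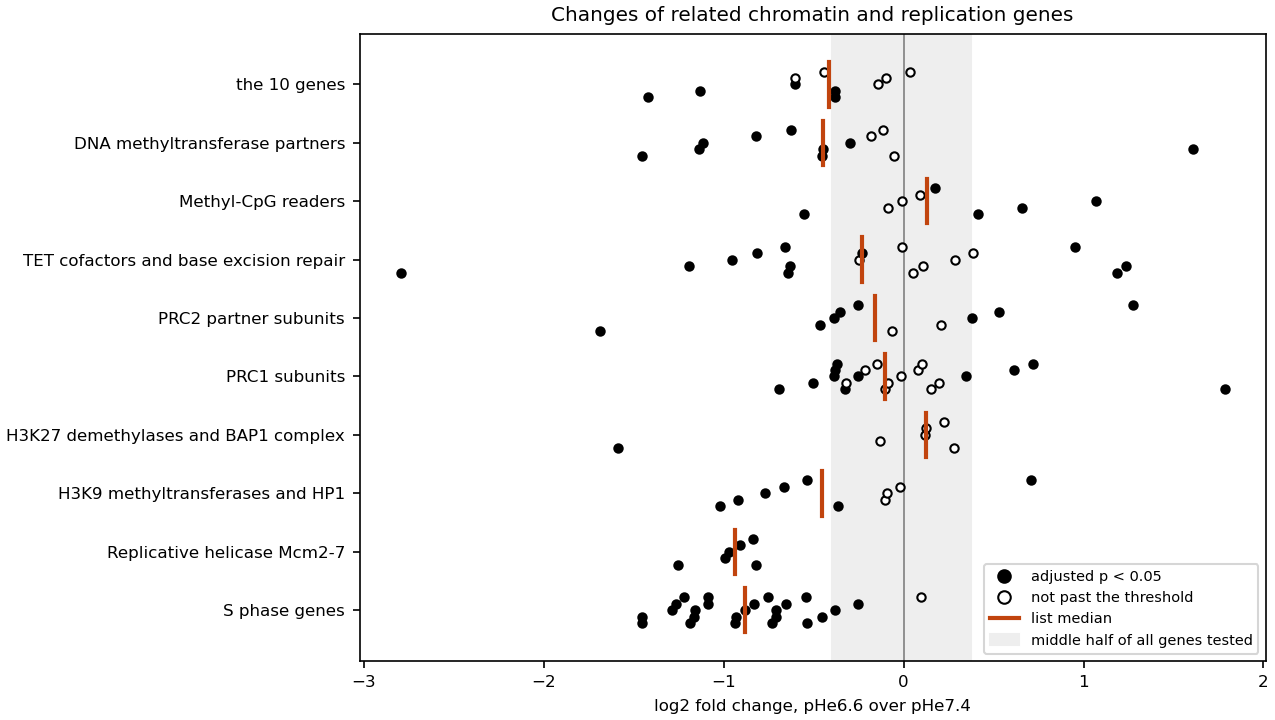
Log2 fold change, pHe6.6 over pHe7.4 (horizontal axis), of each tested gene in the 10-gene group and in 9 lists of related genes, with filled points for genes that passed edgeR's test, open points for those that did not, orange bars for list medians and a grey band for the middle 50% of all genes tested. The helicase and S phase lists have medians of -0.94 and -0.88, the 10 genes -0.41, and the methyl-CpG readers 0.13.

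Genes known as targets of the marks were read from 4 further lists. Of 20 germline genes that promoter methylation silences in somatic cells, 4 passed the filter on low counts. Ddx4, an RNA helicase gene of germ cells, was the 1 called, at 0.271, 0.315 and 0.120 CPM at pHe6.6, against 1.01, 1.40 and 1.21 CPM at pHe7.4 (-2.33, adjusted p = 0.0016, edgeR), and Brdt, a testis bromodomain gene, had overlapping groups (0.37, adjusted p = 0.27). Of 22 imprinted genes, whose single active allele is set by methylation, 20 were tested. At pHe6.6, 8 of these were lower, 7 were higher and 5 did not pass, with a median of 0.04. Peg10, a retrotransposon-derived gene, had 13.86, 11.62 and 11.87 CPM at pHe6.6, against 66.84, 63.72 and 62.75 CPM at pHe7.4 (-2.37, adjusted p = 5.42e-06, edgeR), while Sgce, its neighbour in the same imprinted domain, had 127.6, 105.9 and 122.3 CPM against 65.28, 71.76 and 68.14 CPM (0.79, adjusted p = 2.16e-04, edgeR). The noncoding RNA Rian (-1.35), the zinc finger gene Plagl1 (-1.92) and the adaptor gene Grb10 (-0.78), the most abundant of the list, were lower.

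Of 7 CDK inhibitor genes, 3 were lower at pHe6.6, 2 were higher and 2 did not pass. The count of 2 was 1 when any library other than pHe6.6 replicate B was left out. Cdkn2a, which encodes p16 and p19Arf and is a known target of PRC2 in fibroblasts, had 1.254, 1.377 and 1.386 CPM at pHe6.6, against 6.624, 7.278 and 5.560 CPM at pHe7.4. The groups were far apart (log2 fold change -2.27, adjusted p = 5.43e-05, edgeR), so Cdkn2a and Ezh2 were both lower at pHe6.6. Its neighbour Cdkn2b (-0.76, adjusted p = 0.00182) and Cdkn2c (-1.09, adjusted p = 1.44e-04) were lower, and Cdkn1a, which encodes p21, was higher with 470.1, 495.3 and 402.9 CPM at pHe6.6, against 274.2, 273.3 and 236.0 CPM at pHe7.4 (0.80, adjusted p = 5.06e-04, all by edgeR).

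Of 30 developmental regulators that PRC2 represses in other lineages, 12 passed the filter, and 6 of these were lower at pHe6.6 while 6 did not pass the test. Lhx9 was lower with 0.170, 0.660 and 0.271 CPM at pHe6.6, against 2.80, 6.42 and 3.99 CPM at pHe7.4 (-3.54, adjusted p = 0.00119, edgeR). Gata4 (-2.31, adjusted p = 0.00277), Gata6 (-1.59, adjusted p = 0.00527) and Wt1 (-0.82, adjusted p = 0.00803, all by edgeR) were lower as well. Wt1 is itself 1 of the 16 mesothelial markers, whose sum was 467.5 to 1011 CPM at pHe6.6, against 1821 to 1866 CPM at pHe7.4, with 10 of the 16 lower at pHe6.6, 1 higher and 5 not past the test. The part of these cells in the levels of the 4 genes was not tested. The count of 6 ranged from 4 to 8 when single libraries were left out.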

How the data were processed

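RNA was extracted from 6 PSC cultures (3 at pHe6.6, 3 at pHe7.4), and poly(A)-selected libraries were sequenced as single reads. According to the submitters' processing notes and the methods, the authors aligned reads to mm10 with HISAT2 2.2.1 and deposited raw counts per Ensembl gene from featureCounts 2.0.1. The annotation release and strand setting are not given in the sources used here. A deposited table of the authors' limma 3.50.1 comparison (log2 fold changes, mean log2 CPM, test scores and p-values) was used for gene symbols only.

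The analysis ran in edgeR 4.0.16 under R 4.3.3. A gene needed 0.5 CPM or more in 2 libraries or more, and the 15197 genes that met this held 99.91% to 99.93% of counts, and TMM factors were 0.927 to 1.09. Groups were compared by the quasi-likelihood test with robust dispersions and no covariate, and Benjamini-Hochberg adjusted p-values, over these genes, had a threshold of 0.05. A standard error was taken as the size of the log2 fold change over the square root of F. Log2 ratios used a prior count of 0.5. The labels call the samples biological replicates but name no mouse, so p-values measure the spread between these samples. Alternatives were DESeq2 1.42.0, limma-voom with sample weights (limma 3.58.1), other size factors and filters, a fold change threshold, a replicate block for the letters, and fits without each library in turn. The fit was tested on simulated data.

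Gene positions come from GENCODE vM21 (GRCm38) and promoters from RefSeq. The 10 genes and the lists were chosen with earlier results of these data known. Beside the 10 genes, the text names Uhrf2, Dnmt3l, Ezh1, Mcm2 to Mcm7, up to 4 genes per list with the smallest adjusted p among those past the threshold, the most abundant gene per length in each list, and the 2 nearest profiles of each of the 10 genes past the threshold. Exceptions are marked, and 1 gene named by the rule is not reported here.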

Additional observations from a re-analysis of the deposited data

How the results depend on the processing

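The call of lower expression at pHe6.6 was kept by Ezh2 and Uhrf1 under every alternative run. Their log2 fold changes ranged from -1.55 to -1.34 and from -1.17 to -1.08 when single libraries were left out. With a test against a log2 fold change of 0.58 (glmTreat in edgeR), 2 of the 10 genes were still called lower, Ezh2 and Uhrf1, and over all genes 1067 were lower and 1266 higher, against 3939 lower and 4016 higher without that threshold. Dnmt1 (adjusted p = 0.464), Dnmt3a and Tet3 lost their call there, as the threshold is close to or above their change. By limma-voom with sample weights 7 of the 10 were lower, and over all genes 4590 were lower and 4526 higher, with Dnmt3b (-0.93, adjusted p = 0.021) and Tet1 (-0.47, adjusted p = 0.0483) added to the 5. The count was 4 to 6 when single libraries were left out, and over all genes it was 2939 to 3898 lower and 3334 to 3866 higher. Eed changed sign to -0.001567 without pHe6.6 replicate B (range to 0.07497 over the other libraries left out), and no other gene of the 10 changed sign under any alternative. Medians over all genes stayed between -0.04 and -0.002 under the scalings, filters and tests tried.

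A replicate block for the letter left 5 of the 10 genes lower, and 3602 genes lower and 3806 higher. Same-letter libraries had correlations of deviations of -0.05 (A), 0.01 (B) and 0.21 (C), of which the last was the highest of all pairs across the groups. For A and B a library of another letter came closer. These values do not settle whether a letter marks the same mouse, and the main fit used no block. The block cannot change the ratios' differences, a prior count of 2 moved these by less than their spread, and their p of 0.1 cannot fall further in this design. At this depth, Dnmt3b and Tet1, with 26 to 83 counts per library, had wide intervals.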
